A study of Homo sapiens with 12 samples.

Results

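HEK293T cells that had been given the iron salt ferric ammonium citrate (FAC) were compared with control cells by RNA sequencing, with 3 libraries a group, out of 12 libraries in the series. HEK293T is an immortalised cell line of human embryonic kidney origin into which the SV40 large T antigen was introduced. The genes compared were the 11414 protein-coding genes, of 19548 in the table, whose mean level reached at least 1 FPKM in FAC cells and at least 1 FPKM in control cells. FPKM are fragment numbers scaled to transcript length and to the depth of the library. FAC cells spent 24 h in FAC at 0.1 mg/ml and control cells spent the same 24 h without it, and each group then had a second 24 h without bafilomycin A1 (BafA1 at 0 nM). FAC+BafA1 cells and BafA1 cells, 3 libraries each, differed from these in the second 24 h, which they spent in 10 nM BafA1, an inhibitor of the proton pump that acidifies lysosomes. All 4 groups were wild type and grew in RPMI with 10% serum, 5% CO2 and 21% O2. Replicates are numbered 1 to 3 in the labels, with no word on whether each was its own culture, so p-values measure the spread between these libraries, which may be technical. FAC also brings ammonium and citrate, and no group received these without iron, so their parts cannot be told apart.

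Cells take up iron bound to transferrin through the transferrin receptor, TFRC, release it in acidic endosomes and lysosomes, and store the surplus in ferritin, a shell of FTH1 and FTL chains. Iron regulatory proteins bind a hairpin, the iron-responsive element, when iron is scarce; binding in a 3′ untranslated region protects the TFRC messenger from decay, and binding in a 5′ untranslated region blocks translation, as for both ferritin chains. BMP ligands, receptors and SMAD proteins form a separate signalling pathway whose output in many cells includes the ID genes and the inhibitory SMADs, and in liver it ties iron stores to hepcidin.

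The hairpins are shown because the messengers that carry them are those whose level or translation iron is known to set. GENCODE release 44 coding transcripts were searched on the sense strand for 5 bases, an unpaired C, 5 bases, the loop CAGTGN and 10 bases, with all 5 pairs above the C and at least 4 of the 5 below it. Of 11404 genes searched, 20 held such a hairpin (0.175%). Sites are 27 bases, 5′ to 3′ on the transcript strand, with GRCh38 coordinates and the loop in capitals.
TFRC site 1, chr3:196050980-196051006, minus strand: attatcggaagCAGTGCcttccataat
TFRC site 2, chr3:196050576-196050602, minus strand: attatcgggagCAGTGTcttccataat
TFRC site 3, chr3:196050511-196050537, minus strand: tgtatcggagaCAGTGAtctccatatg
TFRC site 4, chr3:196050464-196050490, minus strand: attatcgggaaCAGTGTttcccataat
FTL, chr19:48965336-48965362, plus strand: tcttgcttcaaCAGTGTttggacggaa
FTH1, chr11:61967575-61967601, minus strand: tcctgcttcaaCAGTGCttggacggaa
SLC40A1, chr2:189580662-189580688, minus strand: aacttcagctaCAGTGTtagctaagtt
The TFRC sites lie in the 3′ untranslated region, and those of FTL, FTH1 and SLC40A1 in the 5′ untranslated region. Of the 20 genes with a hairpin, TFRC and FTL changed with FAC, where 0.824% of all coding genes with their own symbol did.

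The table gave whole-series facts that bear on every count. Depth was estimated from how low values of entries with a gene symbol of their own lie near whole fragments, which gave FAC libraries 37 to 38 M fragments each and control libraries 34.5 to 37.5 M, where M stands for mega. The SD of a coding gene over 3 replicates was 5.22% of its mean for the median gene in FAC cells and 4.97% in control cells. The share of FPKM taken by genes of the mitochondrial genome was 1.63 ± 0.19% in FAC cells and 1.83 ± 0.32% in control cells (SD, n = 3 each; exact permutation test, two-sided, p = 0.6, where 0.1 is the smallest p that 3 against 3 allow). Of 12 transcripts typical of HEK293 cells, 10 were measured, at a summed 597 to 609 FPKM in FAC libraries and 622 to 626 FPKM in control libraries. None of 9 keratinocyte genes was measured, with KRT5, KRT14 and KRT6A at 0 in both groups. The 13 blood cell genes summed to 3.93 to 4.47 FPKM in FAC libraries and 3.01 to 4.66 FPKM in control libraries, with PTPRC at 0. Of the 13, 2 were measured and 0 called, HBA1 among them, at 2.55 FPKM with FAC and 1.88 FPKM in control cells. The 9 fibroblast genes summed to 5.41 to 7.11 FPKM with FAC and 5.10 to 7.27 FPKM in control cells, and the 9 hepatocyte genes to 0.82 to 1.05 FPKM with FAC and 1.13 to 1.52 FPKM in control cells.

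Entries without a gene symbol were filled differently in the libraries with and without FAC. Entries at 0 in every library with FAC but at least 1 FPKM in those without it, or the reverse, numbered 627, and all had a blank symbol, out of 19295 blank entries, and none of the 37015 entries with a symbol of their own did so. Low values of blank entries lay within 0.2 of a whole fragment in 36.2% to 43.2% of cases in the libraries without FAC, where chance gives 40%, and in 62.9% to 66.2% in the libraries with FAC. For entries with their own symbol the shares were 61.9% to 66.0% with FAC and 64.1% to 67.3% without. Each test was therefore run over all 13683 entries that averaged at least 1 FPKM and again over the 12517 of them with their own symbol. A gene is said to have risen or fallen only where both passed an adjusted p of 0.05 (limma on log2(FPKM + 1), Benjamini-Hochberg). Where an adjusted p is printed without its set of entries, it comes from the test over all entries, which includes the blank ones. The 6 coding genes of the comparison without their own symbol are not described.

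FAC changed few genes. An unadjusted p under 0.05 was reached by 1030 coding genes with their own symbol. Over all entries, 217 of 11414 coding genes were called (1.90%), 103 higher (0.902%) and 114 lower (0.999%). Over entries with their own symbol, 94 of 11408 were called (0.824%), 47 higher (0.412%) and 47 lower (0.412%), and these 94 are the genes that rose or fell. The counts of each gene list below are to be read beside these shares. The median coding gene moved by -0.0025 on the log2 scale, and 9 in 10 genes lay between -0.16 and 0.15. A change of at least 0.5 log2 was met by 43 of the called genes (0.377%) over all entries; of the genes that passed both tests it was met by 10 that rose and 24 that fell. Called decreases of 1 log2 or more numbered 7, and called increases of that size 0. Replicates of the groups did not overlap for 1544 coding genes (13.5%).

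**Figure D1:**
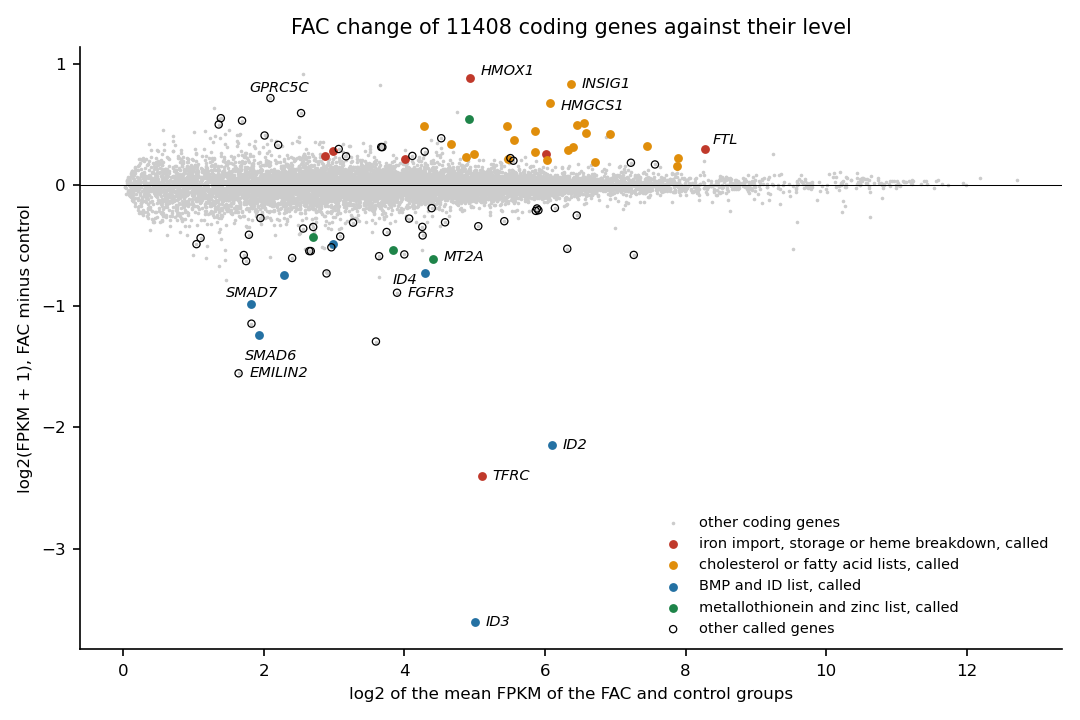
Log2 change of 11408 coding genes, FAC minus control on the log2(FPKM + 1) scale (vertical axis), against log2 of the mean FPKM of both groups (horizontal axis). Grey points are other coding genes, and coloured or ringed points are the 94 that passed both tests: ID3, TFRC and ID2 lie lowest, and HMOX1, INSIG1 and GPRC5C highest of these.

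The transferrin receptor was the iron gene that moved furthest. TFRC, which imports transferrin-bound iron, had 9.39, 9.63 and 11.73 FPKM in FAC libraries, against 58.65, 57.19 and 59.08 FPKM in control libraries. No FAC library came near the control range, and the FAC mean was 17.6% of the control mean. TFRC fell by 2.40 ± 0.06 on the log2 scale (SE; adjusted p = 6.42e-12, limma). In bulk RNA, fewer cells that express a gene and less RNA per cell cannot be told apart. TFRC exons overlap those of another annotated gene, and whether the authors' counting used the strand is not given in the sources used here. The same holds for other genes named: FTH1, STEAP3, SLC25A28, FBXL5, CDC14A and CDC42BPA among iron genes, ID2, BMP4, BMP6, BMPR2, SMAD1, SMAD4 and SMAD5 among BMP genes, HMGCS1, ACAT2, IDI1, FDFT1, ELOVL6, ACSL4, SREBF1 and SREBF2 among lipid genes, and MT1X, SLC7A11, MAFG, NQO1, CD63, EMILIN2, SAMD11, CARMIL2, ASNS, VEGFA, NDRG1, HIF1A and MIF.

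No other iron import gene passed both tests. SLC11A2, which moves ferrous iron across the endosomal membrane, had 11.16, 11.61 and 12.81 FPKM with FAC, against 15.42, 14.40 and 13.50 FPKM in control cells. Its groups did not overlap, yet its log2 change of -0.26 ± 0.06 passed over all entries (adjusted p = 0.0118, limma) and missed over entries with their own symbol (adjusted p = 0.0915, limma). SLC39A14, a transporter of zinc and non-transferrin-bound iron, averaged 30.6 ± 0.87 FPKM with FAC and 28.9 ± 0.53 FPKM in control cells (SD, n = 3 each; adjusted p = 0.195, limma). The reductase STEAP3 averaged 13.1 FPKM with FAC and 14.4 FPKM in control cells, and the mitochondrial importers SLC25A37 and SLC25A28 moved by -0.12 and -0.07 log2, none of them called. Of the 15 iron import genes measured, TFRC fell, 0 rose, and the median log2 change was 0.02. Among all coding genes with their own symbol, 0.412% fell.

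FTL, the ferritin light chain, had 359.57, 347.45 and 322.93 FPKM with FAC, against 270.99, 286.30 and 279.12 FPKM in control cells. The groups were apart and FTL rose by 0.30 ± 0.04 log2, 1.23-fold (adjusted p = 1.01e-04 over all entries, limma). Over entries with their own symbol the adjusted p of FTL was larger, 0.00167 (limma). FTH1, the heavy chain that oxidises ferrous iron, had 563.32, 546.96 and 567.83 FPKM with FAC, against 614.28, 626.49 and 584.40 FPKM in control cells. The FTH1 groups did not overlap, but the log2 change of -0.12 ± 0.04 was not called (adjusted p = 0.0668 over all entries and 0.288 over entries with their own symbol, limma). Without control replicate 3 FTH1 passed over all entries (-0.15 log2, adjusted p = 0.0256, limma).

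NCOA4, the receptor that brings ferritin to lysosomes for breakdown, rose with FAC. It had 69.43, 69.98 and 71.82 FPKM with FAC, against 59.65, 58.04 and 58.64 FPKM in control cells. The change was 0.26 ± 0.03 log2 (adjusted p = 8.66e-06 over all entries and 2.59e-04 over entries with their own symbol, limma). The iron exporter SLC40A1 lay near the expression minimum, at 1.11 ± 0.21 FPKM with FAC and 1.29 ± 0.09 FPKM in control cells (SD, n = 3 each), and was not called (adjusted p = 0.659, limma). Of the 8 storage and export genes measured, FTL and NCOA4 rose and 0 fell, with a median of 0.03 log2. Among all coding genes with their own symbol, 0.412% rose.

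The sensors themselves showed no called change at the RNA level. ACO1, the iron regulatory protein that doubles as cytosolic aconitase, averaged 20.6 ± 0.56 FPKM with FAC and 20.1 ± 0.15 FPKM in control cells. IREB2, the other iron regulatory protein, averaged 52.5 ± 1.56 FPKM with FAC and 54.8 ± 4.35 FPKM in control cells. FBXL5, the iron-binding ubiquitin ligase subunit that marks IREB2 for degradation, averaged 21.9 ± 0.43 FPKM with FAC and 21.0 ± 1.73 FPKM in control cells (SD, n = 3 each). Of 7 sensing genes measured 0 were called, with changes from -0.06 to 0.06 log2. Of 11 measured transcripts known for an iron-responsive element, 1 rose (FTL) and 1 fell (TFRC). SLC11A2, also on that list, was lower over all entries alone, as given above. CDC14A moved by -0.04 ± 0.08 log2, CDC42BPA by -0.04 ± 0.04 and EPAS1 by -0.20 ± 0.12, and they were not called.

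**Figure D2:**
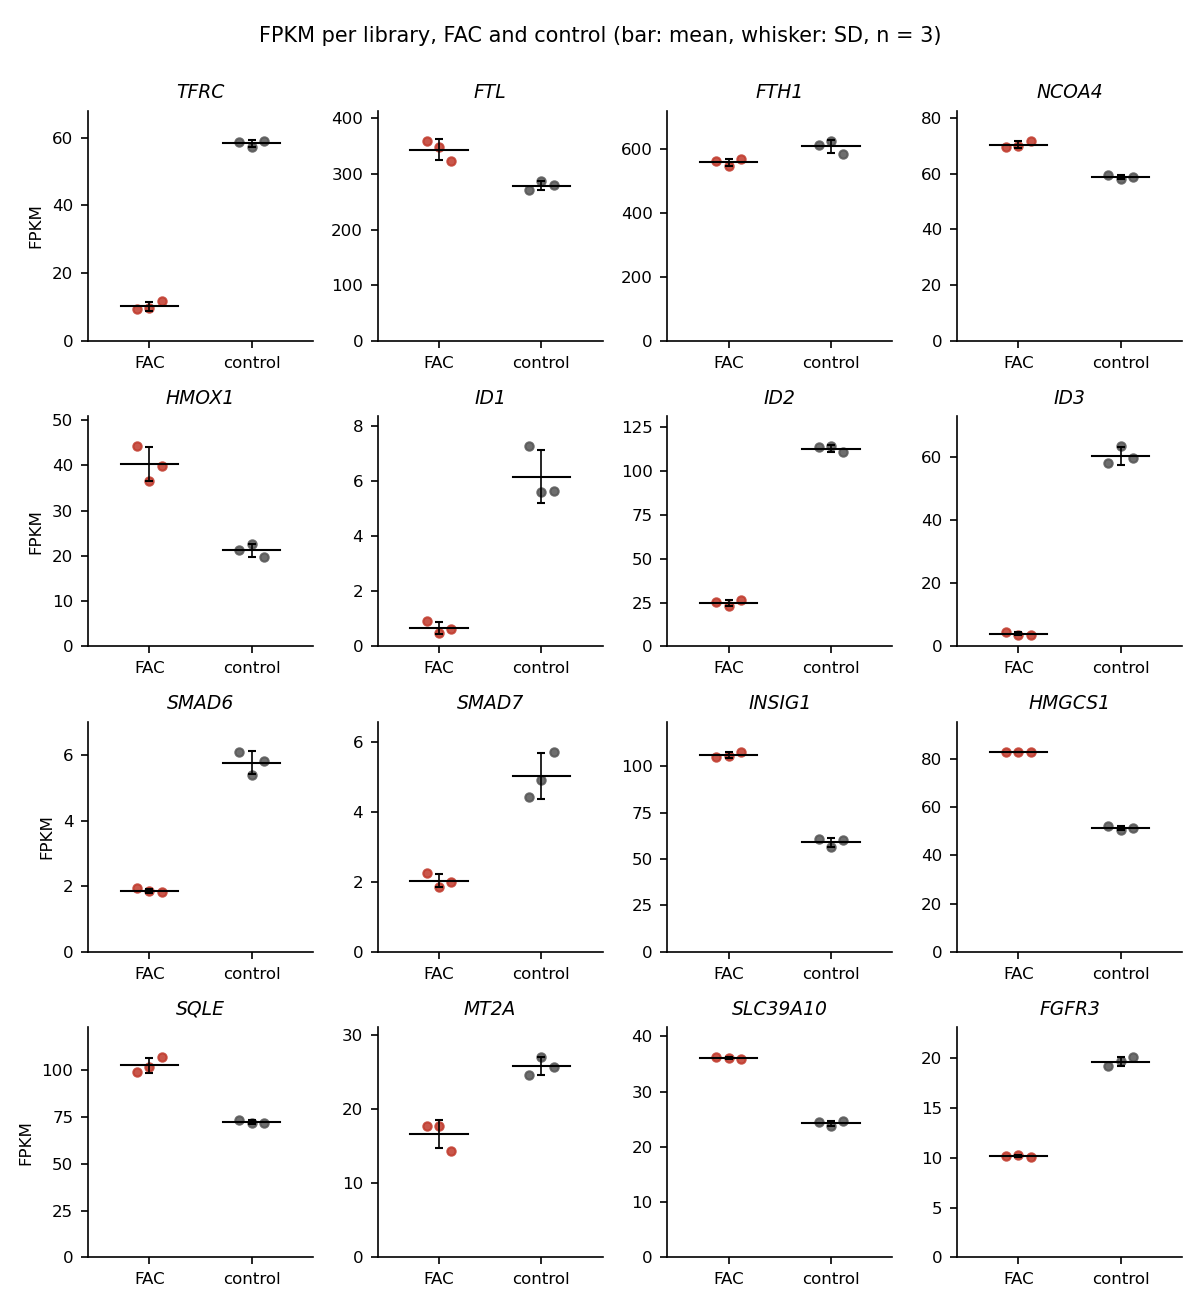
FPKM in each library (points), mean (bar) and SD (whisker) for 16 genes, with FAC at the left and control at the right of each panel and every vertical axis starting at 0. TFRC, the ID genes, SMAD6, SMAD7, MT2A and FGFR3 are lower with FAC; FTL, NCOA4, HMOX1, INSIG1, HMGCS1, SQLE and SLC39A10 are higher; FTH1 was not called.

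The ID genes, which encode dominant-negative partners of helix-loop-helix transcription factors, fell together. ID3 had 4.70, 3.79 and 3.70 FPKM with FAC, against 58.04, 63.50 and 59.65 FPKM in control cells. The FAC mean was 6.73% of the control mean, and ID3 fell by 3.60 ± 0.09 log2, the furthest of the 11408 coding genes (adjusted p = 6.79e-12, limma). ID2 had 25.10, 23.04 and 26.25 FPKM with FAC, against 113.33, 114.11 and 110.51 FPKM in control cells, and fell by 2.14 ± 0.05 log2 (adjusted p = 5.14e-12, limma). ID4 had 14.43, 13.50 and 15.64 FPKM with FAC, against 25.21, 24.80 and 23.70 FPKM in control cells, and fell by 0.72 ± 0.05 log2. In none of the 3 did the groups overlap.

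ID1 lay outside the 11414 genes because its FAC mean was below 1 FPKM. It had 0.93, 0.49 and 0.62 FPKM with FAC, against 7.28, 5.60 and 5.64 FPKM in control cells. The groups did not overlap, and no test is given, since ID1 was high enough to be tested only through its control libraries. The inhibitory SMADs fell. SMAD6, which blocks BMP receptor signalling, had 1.94, 1.86 and 1.82 FPKM with FAC, against 6.11, 5.41 and 5.81 FPKM in control cells, and fell by 1.24 ± 0.12 log2 (adjusted p = 6.67e-06, limma). SMAD7, which blocks BMP and TGF-beta receptors, had 2.24, 1.86 and 2.01 FPKM with FAC, against 4.42, 4.90 and 5.72 FPKM in control cells, and fell by 0.98 ± 0.10 log2 (adjusted p = 7.00e-06, limma).

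SMAD9, a receptor-regulated SMAD of the BMP branch, had 3.44, 3.42 and 3.35 FPKM with FAC, against 6.41, 6.27 and 6.40 FPKM in control cells, and fell by 0.74 ± 0.05 log2 (adjusted p = 2.12e-07, limma). BAMBI, a decoy receptor, averaged 6.46 FPKM with FAC and 9.46 FPKM in control cells and fell by 0.49 ± 0.08 log2. The ligands and receptors did not pass: BMP4 moved by -0.08 log2, BMP2 by -0.05, BMP6 by 0.05 and BMP7 by 0.13, while BMPR1A moved by -0.09, BMPR2 by -0.19 and ACVR1 by -0.08. Nor did SMAD1, SMAD4 and SMAD5, which carry the signal, at -0.04, 0.07 and 0.06 log2 for SMAD1, SMAD4 and SMAD5. Of the 18 BMP and ID genes measured, 7 fell and 0 rose, with a median of -0.08 log2, beside -0.0025 over all coding genes. The share that fell was 0.412% over all coding genes with their own symbol. NOG, a secreted BMP antagonist, was below 1 FPKM with FAC, at 0.547 FPKM, and at 1.82 FPKM in control cells, and is given without a test for the same reason as ID1.

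Heme oxygenase 1 had the largest rise of the 94 genes. HMOX1, which breaks heme down and releases its iron, had 44.23, 36.63 and 39.91 FPKM with FAC, against 21.31, 22.58 and 19.74 FPKM in control cells. It rose by 0.89 ± 0.07 log2, 1.90-fold (adjusted p = 5.63e-07, limma). Other targets of BACH1 or NRF2 moved little: SLC7A11, the cystine importer, rose by 0.28 ± 0.05 log2, MAFG, a small MAF partner of both factors, by 0.24 ± 0.05, and ME1, a malic enzyme, by 0.22 ± 0.04. GCLM, a glutamate-cysteine ligase subunit, NQO1, a quinone reductase, and TXNRD1, a thioredoxin reductase, moved by 0.21, 0.13 and 0.04 log2 and were not called. Of 30 genes measured on the heme and NRF2 list, 4 rose and 0 fell, with a median of 0.08 log2. Among all coding genes with their own symbol, 0.412% rose.

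Genes of cholesterol synthesis rose together. INSIG1, the sterol-responsive protein that holds back SREBP processing and is itself an SREBP target, had 104.76, 105.54 and 107.78 FPKM with FAC, against 60.70, 56.29 and 60.09 FPKM in control cells. It rose by 0.83 ± 0.03 log2, 1.80-fold (adjusted p = 5.48e-10, limma). HMGCS1, which makes HMG-CoA at the start of the pathway, had 82.66, 82.91 and 82.62 FPKM with FAC, against 52.29, 50.61 and 51.13 FPKM in control cells, and rose by 0.68 ± 0.03 log2 (adjusted p = 1.17e-09, limma). Replicates of both genes lay in tight groups that did not overlap.

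The rise ran along the pathway. In its early steps ACAT2 rose by 0.44 ± 0.03 log2, MVD by 0.49 ± 0.07 and IDI1 by 0.51 ± 0.06. At the steps that commit to sterols FDFT1 rose by 0.42 ± 0.03 log2 and SQLE, the squalene epoxidase, by 0.50 ± 0.03. SQLE had 99.29, 101.70 and 107.00 FPKM with FAC, against 73.43, 71.88 and 71.77 FPKM in control cells. In the late steps MSMO1, an iron-dependent methyl sterol oxidase, rose by 0.49 ± 0.04 log2 and DHCR7 by 0.45 ± 0.06. SREBF2, which encodes the activating factor, moved by 0.15 ± 0.05 log2 and was not called. Of 28 genes measured 16 rose and 0 fell, 25 had a positive change, and the median was 0.29 log2. The share that rose was 0.412% over all coding genes with their own symbol.

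Fatty acid genes also rose. SCD, the desaturase that makes oleate, had 255.36, 253.13 and 260.21 FPKM with FAC, against 216.88, 218.93 and 220.11 FPKM in control cells. It rose by 0.23 ± 0.03 log2 (adjusted p = 7.41e-05 over all entries and 0.00153 over entries with their own symbol, limma). ELOVL6 and ELOVL5, which lengthen fatty acids, rose by 0.34 ± 0.04 and 0.21 ± 0.03 log2. ACSL4, which activates polyunsaturated fatty acids and sensitises cells to ferroptosis, rose by 0.23 ± 0.05. FASN, the fatty acid synthase, had 139.57, 139.70 and 121.31 FPKM with FAC, against 86.84, 106.86 and 109.92 FPKM in control cells; its change of 0.40 ± 0.10 log2 passed over all entries (adjusted p = 0.0161, limma) but not over entries with their own symbol (adjusted p = 0.100, limma). Of 20 genes measured 8 rose, INSIG1 among them, and 0 fell, with a median of 0.19 log2. The share that rose was 0.412% over all coding genes with their own symbol. SREBF1, the activator of this branch, moved by 0.03 ± 0.11.

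**Figure D3:**
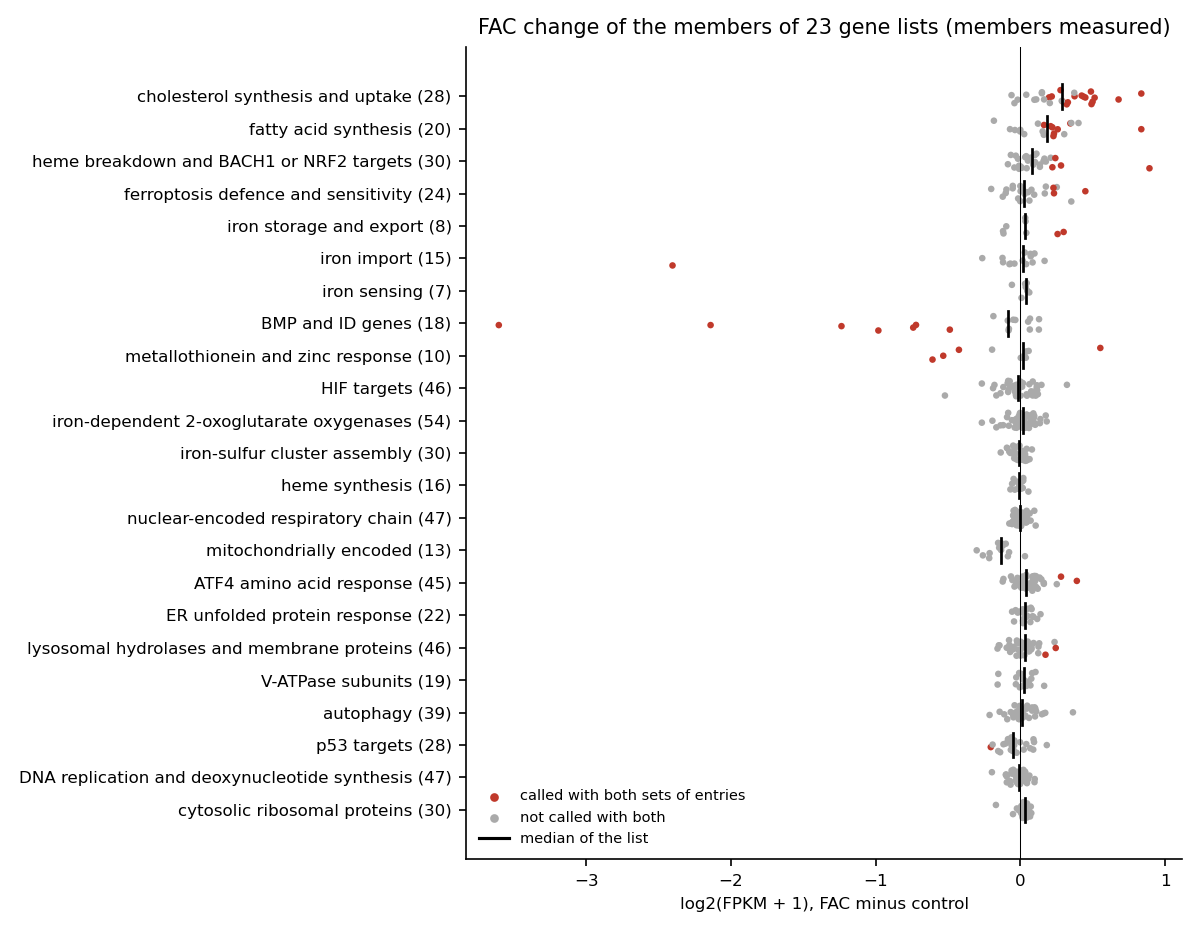
Log2 change, FAC minus control on the log2(FPKM + 1) scale (horizontal axis), of each measured member (points) of gene lists (rows, with the number measured in brackets); red points passed both tests and black bars are medians. The cholesterol and fatty acid lists lie to the right, with medians of 0.29 and 0.19, and 7 members of the BMP and ID list lie to the left.

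Promoters of 3 cholesterol genes are shown because these genes rose together. They are RefSeq sequences on GRCh38.p14 300 bases long around the transcription start, 5′ to 3′ on the gene's strand, with each CCAAT on either strand (read as ATTGG on the other) in capitals.
INSIG1, chr7:155297628-155297927, plus strand: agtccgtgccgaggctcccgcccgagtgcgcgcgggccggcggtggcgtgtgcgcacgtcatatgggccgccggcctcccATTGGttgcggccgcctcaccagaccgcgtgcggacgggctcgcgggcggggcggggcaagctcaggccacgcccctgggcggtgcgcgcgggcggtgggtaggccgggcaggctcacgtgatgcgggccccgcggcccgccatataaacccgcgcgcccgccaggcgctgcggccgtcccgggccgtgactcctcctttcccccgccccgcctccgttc
HMGCS1, chr5:43313363-43313662, minus strand: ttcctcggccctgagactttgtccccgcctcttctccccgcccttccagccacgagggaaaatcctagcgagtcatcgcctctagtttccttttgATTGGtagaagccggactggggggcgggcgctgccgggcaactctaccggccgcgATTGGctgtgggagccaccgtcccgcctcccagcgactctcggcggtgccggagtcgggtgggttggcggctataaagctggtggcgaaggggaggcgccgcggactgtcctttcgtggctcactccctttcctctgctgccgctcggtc
MSMO1, chr4:165327419-165327718, plus strand: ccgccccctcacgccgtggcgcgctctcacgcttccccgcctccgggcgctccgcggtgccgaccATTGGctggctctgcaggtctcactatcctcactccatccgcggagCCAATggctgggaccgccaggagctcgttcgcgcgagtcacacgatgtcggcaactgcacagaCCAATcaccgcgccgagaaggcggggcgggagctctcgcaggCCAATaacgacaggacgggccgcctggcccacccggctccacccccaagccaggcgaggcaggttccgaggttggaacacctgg
Matches to CCAAT, the motif bound by the factor NF-Y, were in 10 of the 12 promoters matched among the cholesterol genes called over all entries, in 17 of 22 matched over the list and in 3507 of 9420 matched coding genes of the comparison (37.2%). Matches to TCACNCCAC, a sterol regulatory element core, were in 0 of those 12 and in 1.04% of coding genes. Over the list they were in 1 of 22 (4.55%), that of SREBF2. Only this core was searched, in 300 bases, and 12 of the 17 called genes had a matched promoter. The 0 therefore does not show that these genes lack sterol regulatory elements. In 17 matched promoters of the BMP and ID list, ID1 included, the SMAD-type motif GTCTAG was in 2, those of ID1 and SMAD6 (11.8%, against 4.89% of coding genes), and GGCGCC was in 6 (35.3%, against 32.4%). In the 8 promoters of ID1 and the genes called over all entries, GTCTAG was in 2 (25%) and GGCGCC in 1 (12.5%). Both strands were searched, and overlap between matches to different motifs was not counted.

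Zinc and metallothionein genes moved in both directions. MT2A, a metal-binding metallothionein, had 17.77, 17.80 and 14.43 FPKM with FAC, against 24.70, 27.06 and 25.72 FPKM in control cells. It fell by 0.61 ± 0.09 log2 (adjusted p = 2.36e-04 over all entries and 0.00344 over entries with their own symbol, limma). MT1X fell by 0.53 ± 0.08 and SLC30A1, which exports zinc, by 0.43 ± 0.07. SLC39A10, a zinc importer, had 36.26, 36.02 and 35.89 FPKM with FAC, against 24.53, 23.72 and 24.60 FPKM in control cells, and rose by 0.55 ± 0.03 log2 (adjusted p = 4.81e-08, limma). The metallothioneins are near-identical copies, so reads may be split between them. MTF1, the metal-sensing activator of these genes, moved by -0.20 ± 0.10 and was not called. Of 10 genes measured 1 rose and 3 fell, where 0.412% of all coding genes with their own symbol rose and 0.412% fell.

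Several decreases lay outside these lists. FGFR3, a fibroblast growth factor receptor, had 10.18, 10.29 and 10.02 FPKM with FAC, against 19.15, 19.69 and 20.09 FPKM in control cells, and fell by 0.89 ± 0.05 log2 (adjusted p = 2.14e-08, limma). ZCCHC12, a zinc finger protein, fell by 0.58 ± 0.05, RASGEF1B by 0.57 ± 0.07, the netrin receptor UNC5B by 0.54 ± 0.06, SKIL, a repressor of SMAD activity, by 0.54 ± 0.08, and MSX2, a homeobox gene that answers BMP in many tissues, by 0.51 ± 0.07. EMILIN2, SAMD11 and CARMIL2 fell by 1.55, 1.29 and 1.14 log2; they were named after their values were seen, as their exons overlap those of other genes. GPRC5C, an orphan G protein-coupled receptor, had 5.82, 5.73 and 5.15 FPKM with FAC, against 3.33, 3.12 and 2.53 FPKM in control cells, and rose by 0.72 ± 0.12 log2. KCNK1, a potassium channel, rose by 0.41 ± 0.07.

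Lists of stress and organelle genes held few changes. Of 45 ATF4 targets measured, ATF3, a stress-induced transcription factor, rose by 0.39 ± 0.05 log2, SLC7A11 rose as above and 0 fell; ASNS, asparagine synthetase, moved by 0.08 ± 0.03. JUN rose by 0.23 ± 0.04, while EGR1 stood at 0.537 FPKM with FAC and 0.487 FPKM in control cells and GDF15 at 0.187 FPKM with FAC and 0.313 FPKM in control cells, too low to be tested. Of 46 lysosomal genes CD63 rose by 0.17 ± 0.03 and NEU1 by 0.24 ± 0.04, and 0 fell. PMAIP1 fell by 0.21 ± 0.03 among 28 p53 targets, and HOXD13, typical of HEK293 cells, by 0.30 ± 0.04.

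Genes of the hypoxia-inducible factors, whose degradation needs iron-dependent hydroxylases, did not pass. VEGFA averaged 13.4 ± 1.75 FPKM with FAC and 12.4 ± 0.36 FPKM in control cells, and NDRG1 16.5 ± 1.28 FPKM with FAC and 18.9 ± 1.29 FPKM in control cells, all as SD with n = 3 each. HIF1A, the oxygen-regulated subunit, moved by -0.11 ± 0.08 log2 (SE). Of 46 targets measured 0 passed both tests, and MIF and KDM3A, at -0.52 and -0.27 log2, passed over all entries alone. Likewise with limma 0 genes passed both tests among 54 iron-dependent 2-oxoglutarate oxygenases, 30 iron-sulfur assembly, 16 heme synthesis, 47 respiratory chain, 19 V-ATPase, 39 autophagy, 22 unfolded protein response and 47 DNA replication genes. The 13 mitochondrially encoded genes had a median of -0.13 log2 with 0 called. A list without calls does not show that its genes were unaffected.

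The same salt given to cells that then received BafA1 changed many more genes. FAC+BafA1 against BafA1 called 7702 of the 11414 coding genes (67.5%), and the difference between the FAC changes without and with BafA1 was called for 6211 (54.4%). Of the 94 genes, 56 were called in the same direction in BafA1 cells and 23 in the opposite one. With 4521 of all coding genes called higher there and 3181 lower, the counts of 56 and 23 do not by themselves show agreement. For 78 of the 94 the difference was called. The count of 78 is not independent, since the 94 were chosen on part of the same difference. FAC+BafA1 and BafA1 libraries are other libraries than those of FAC and control cells.

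**Figure D4:**
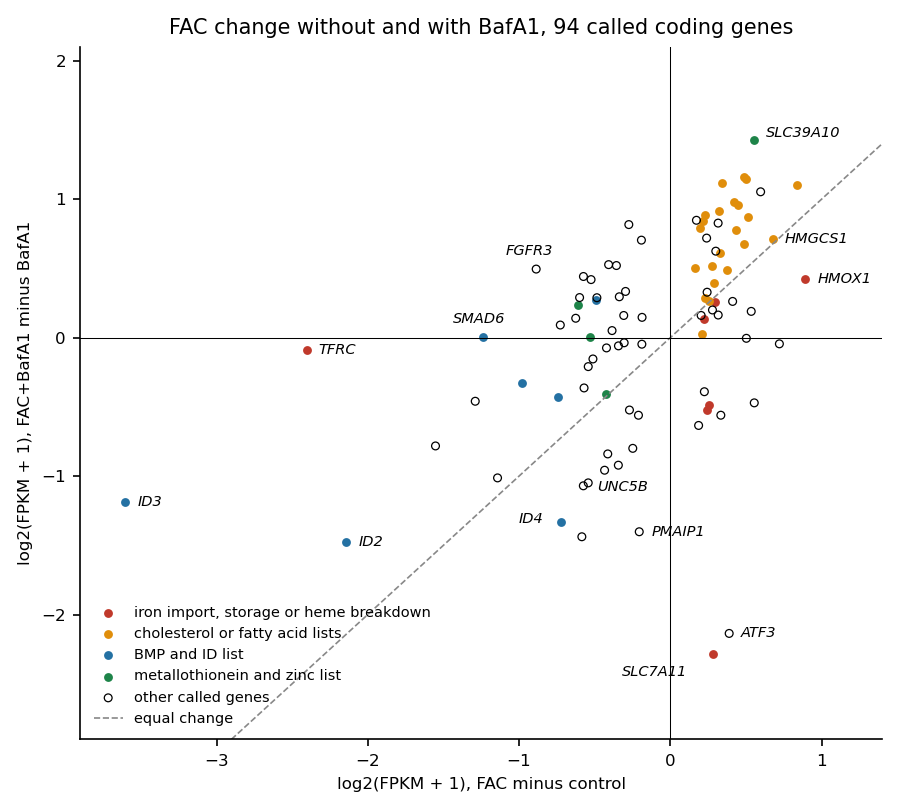
Log2 change of the 94 genes without BafA1, FAC minus control (horizontal axis), against the change with BafA1, FAC+BafA1 minus BafA1 (vertical axis), on the log2(FPKM + 1) scale; the dashed line marks equal changes. Cholesterol and fatty acid genes lie right of zero and above it, TFRC lies near zero on the vertical axis, and ATF3 and SLC7A11 lie far below the line.

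TFRC did not follow FAC in BafA1 cells. It averaged 122 ± 3.03 FPKM in FAC+BafA1 cells and 130 ± 3.05 FPKM in BafA1 cells (SD, n = 3 each), a log2 change of -0.09 that was not called, and the changes differed by -2.32 log2 (adjusted p = 3.92e-09, limma). Under the other scalings the TFRC change in BafA1 cells was called: -0.16 with median-of-ratios scaling (adjusted p = 0.0495, limma), and -0.17 with quantile normalization (adjusted p = 0.0366) and with equal sums over coding genes (adjusted p = 0.0319). SMAD6 gave 1.59 FPKM in FAC+BafA1 cells and 1.54 FPKM in BafA1 cells, and its changes differed by -1.24 log2. ID3 was lower with FAC in both settings, at 6.69 FPKM in FAC+BafA1 cells and 16.6 FPKM in BafA1 cells (-1.19 log2), and its changes differed by -2.42 log2. ID2 changed by -1.47 log2 in BafA1 cells, and ID4 by -1.33, further than without BafA1.

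Cholesterol genes were higher with FAC in BafA1 cells too. HMGCS1 averaged 87.63 FPKM in FAC+BafA1 cells and 53.04 FPKM in BafA1 cells, and the difference between its changes without and with BafA1 was within error (-0.04 ± 0.04 log2, adjusted p = 0.5, limma). The changes of INSIG1, SQLE and MSMO1 were larger in BafA1 cells, with differences of -0.27, -0.65 and -0.67 log2, and the list median was 0.69 there, beside 0.06 over all coding genes. FTL was higher by 0.26 log2 in FAC+BafA1 than in BafA1 cells, and the difference between its changes was not called (0.04 ± 0.06 log2, adjusted p = 0.574, limma). Under quantile normalization the FTL change in BafA1 cells was 0.07 and not called (adjusted p = 0.117, limma), and the difference was called (0.22 log2, adjusted p = 0.00606, limma).

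NCOA4, ATF3, SLC7A11 and FGFR3 had changes of opposite sign without and with BafA1. NCOA4 was at 61.0 FPKM in FAC+BafA1 cells and 86.0 FPKM in BafA1 cells, a change of -0.49 log2 where FAC alone gave 0.26. ATF3 averaged 26.3 FPKM in FAC cells and 19.8 FPKM in control cells. It stood at 122 FPKM in FAC+BafA1 cells and 539 FPKM in BafA1 cells, both above the control and FAC levels. SLC7A11 averaged 6.41 FPKM in FAC+BafA1 cells and 35.1 FPKM in BafA1 cells. The changes of ATF3 and SLC7A11, -2.14 and -2.28 log2, ran against the small rises in cells without BafA1. FGFR3 had the opposite sign, 0.50 log2 in BafA1 cells, at 9.81 FPKM in FAC+BafA1 cells and 6.67 FPKM in BafA1 cells. HMOX1 averaged 11.1 FPKM in FAC+BafA1 cells and 7.97 FPKM in BafA1 cells, a change of 0.42 log2, and its changes differed by 0.47.

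**Figure D5:**
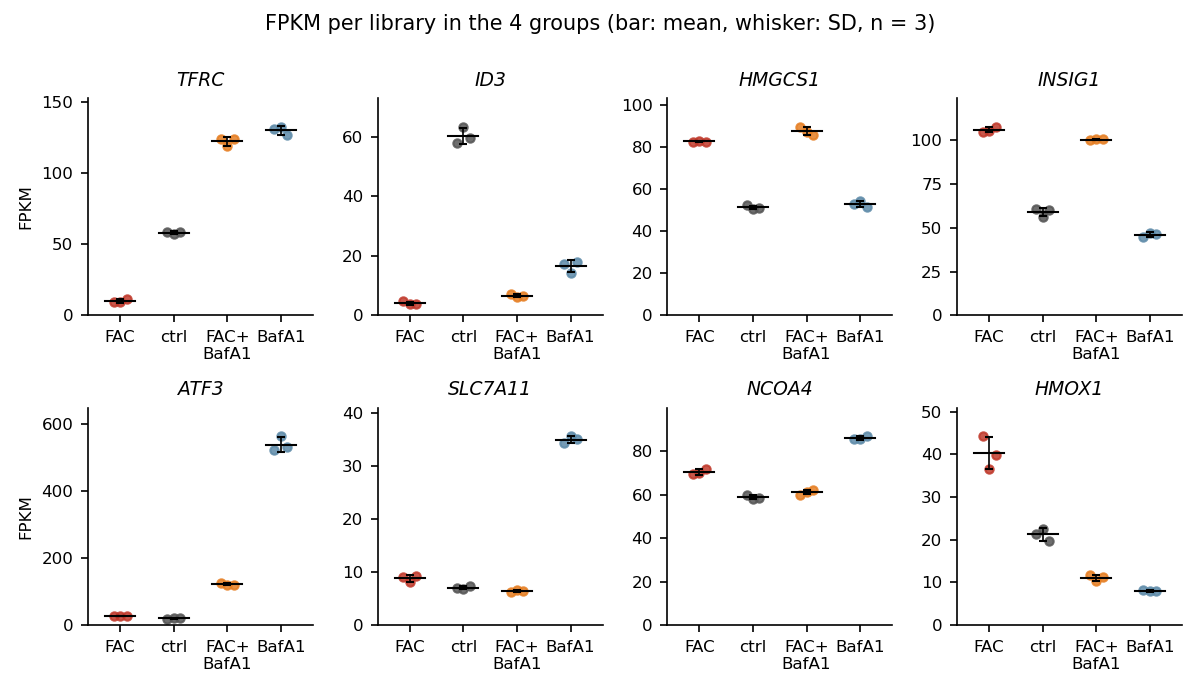
FPKM in each library (points), mean (bar) and SD (whisker) for 8 genes in FAC, control, FAC+BafA1 and BafA1 cells from left to right, with every vertical axis starting at 0. FAC+BafA1 and BafA1 stand close together for TFRC and apart for ATF3 and SLC7A11, where BafA1 cells are highest.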

How the data were processed

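Polyadenylated RNA was sequenced from stranded mRNA libraries, per the labels' protocols. The authors deposited FPKM for 56340 gene entries in 12 libraries, made with STAR and RSEM on GRCh38, per the submitters' processing notes; their versions, the annotation, any filter and the strand setting were not found in those notes. Of these, 6 entries with repeated IDs and 0 in every library were dropped, and 56101 of 56334 IDs matched GENCODE release 44, which gave gene types and positions.

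FPKM are not counts, so no count test was run. Log2(FPKM + 1) values of entries averaging at least 1 FPKM over the 6 FAC and control libraries were fitted with limma 3.58.1 (R 4.3.3) over all 12 libraries, one mean for each group, an intensity trend, and adjusted by Benjamini-Hochberg. The log scale understates changes of low genes. Depth was estimated from low values, with 150-base fragments assumed; no count was recovered, so no count-based interval is given. The second test, over entries with their own symbol, was added after seeing the data.

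Genes named were the 12 largest increases and 12 largest decreases among called genes without overlap of replicates or exons, up to 4 called members per list, a set always named, and the 6 largest differences each way between the FAC changes; others were chosen after their values were seen. The comparison, its members and the lists were chosen with earlier results of these data known. The fit was tested on simulated data. Some members of the cholesterol list are counted but not reported here one by one. Sequences came from GENCODE transcripts and RefSeq promoters. Alternatives changed the pseudocount, filter, scaling, libraries, trend, block and gene set. Same-numbered FAC and control libraries did not deviate together.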

Additional observations from a re-analysis of the deposited data

Results flagged for a closer look

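The genes listed below, except ID1, passed both tests for FAC against control. For them the FAC change without BafA1 differed from the FAC change with BafA1 (limma, adjusted p under 0.05 for the difference itself). The values below are the change without BafA1 minus the change with BafA1, on the log2 scale. Genes that did not pass both tests are not listed, and the genes listed were chosen on part of the same difference. ID1 was high enough to be tested only through its control libraries, so its value is a description without a test. Among iron and heme genes the difference was -2.32 for TFRC, 0.47 for HMOX1, 0.75 for NCOA4, 0.76 for MAFG and 2.56 for SLC7A11. Among ID and SMAD genes it was -1.22 for ID1 (no test), -0.67 for ID2, -2.42 for ID3, 0.61 for ID4, -1.24 for SMAD6, -0.65 for SMAD7 and -0.31 for SMAD9. Among sterol and fatty acid genes it was -0.34 for ACAT2, -0.34 for ACLY, -0.51 for DHCR7, 0.18 for ELOVL5, -0.77 for ELOVL6, -0.27 for INSIG1, -0.67 for MSMO1, -0.66 for SCD and -0.65 for SQLE. Among metal genes it was -0.54 for MT1X, -0.85 for MT2A and -0.88 for SLC39A10. Among stress and other genes it was 2.53 for ATF3, 0.62 for JUN, 1.20 for PMAIP1, -0.68 for CD63, -0.63 for HOXD13, -1.38 for FGFR3, 0.77 for GPRC5C, -0.36 for MSX2, -0.33 for SKIL, 0.51 for UNC5B, 0.50 for RASGEF1B and 0.85 for ZCCHC12. A negative value means that the FAC change was lower, on the signed scale, without BafA1 than with it, which includes genes whose changes had opposite signs.

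Entries without a symbol numbered 627 that stood at 0 in every library on one side of FAC and at 1 FPKM or more on the other. Those that averaged at least 1 FPKM were in the test over all entries, all were left out of the test over entries with their own symbol, and none is described.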

How the results depend on the processing

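The count of coding genes called for FAC against control was 217, and it moved with which entries were fitted, counted and adjusted together: 367 with no filter on low values, 130 at a mean of at least 5 FPKM, 107 when only the coding genes were fitted, 94 for entries with their own symbol and 55 for the 5325 coding genes without exon overlap, where fewer genes were tested. The count with a change of at least 0.5 log2 was 43, and 97, 22 and 19 with no filter, at 5 FPKM and without exon overlap. Without exon overlap the difference between the FAC changes was called for 3087 genes and FAC+BafA1 against BafA1 for 3684. The fall of the count from 217 to 94 when blank entries left the fit was the reason for asking a gene to pass both. The 44 named genes that passed both kept their call under every alternative that tested them. The other scalings, pseudocount, trend, block and left-out libraries were fitted over all entries, blank ones included. The test over entries with their own symbol was not repeated under them, so whether genes near its threshold would keep passing it was not tested. ACSL4 was such a gene (adjusted p = 0.0438 over entries with their own symbol, limma).

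Leaving out 1 library gave 165 (without FAC replicate 2) to 254 (without FAC replicate 3) calls, and 41 to 47 at 0.5 log2 or more. With replicate numbers as a block (replicate block), 206 genes were called, 42 of them at 0.5 log2 or more. The deviations of same-numbered FAC and control libraries correlated at -0.031, -0.0012 and 0.0040, so the numbers were not taken as pairs. Small uncalled changes reversed sign, and the cause was not tested. CDC14A ranged over -0.096 to 0.012 (without control replicate 3; 0.0073 without FAC replicate 1), COL1A1 over -0.0062 (without FAC replicate 1) to 0.25 and FBXL5 over -0.0060 (without control replicate 3) to 0.096. Other scalings left 44.5% to 51.6% of calls higher, beside 47.5%. For FAC+BafA1 against BafA1 the share higher was 58.7%, and 48.1% under equal sums over coding genes; for the difference of the changes it was 40.2%, and 51.1%. Depth was only estimated, and changes of genes near 1 FPKM are understated.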

Other observations

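Selenoproteins, which carry selenocysteine, were looked at after their values were seen. Of 25 genes 19 were measured, 4 fell and 0 rose, where 0.412% of all coding genes with their own symbol fell. The median was -0.02 log2, beside -0.0025 over all coding genes. GPX1, which reduces peroxides, averaged 123 FPKM with FAC and 184 FPKM in control cells and fell by 0.57 ± 0.06 log2 (adjusted p = 4.81e-06, limma). SELENOH averaged 65.3 FPKM with FAC and 94.3 FPKM in control cells and fell by 0.52 ± 0.05 (adjusted p = 4.55e-06, limma). GPX3 fell by 0.27 ± 0.05 and SELENOT by 0.19 ± 0.04. GPX4, which guards membrane lipids against peroxidation, moved by -0.12 ± 0.05 and was not called, and TXNRD1 moved by 0.04 ± 0.04. In BafA1 cells the FAC change was 0.44 log2 for GPX1 and 0.42 for SELENOH. Exons of GPX1, SELENOH and SELENOT, and of GATA2 and CITED1, overlap those of other genes.

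A second list chosen in the same way held 24 other genes reported to answer BMP or SMAD signals in some tissue. Of 21 measured, 7 fell and 0 rose, where 0.412% of all coding genes with their own symbol fell. The genes were chosen with their values known, so the count is not an independent result. The median was -0.16 log2, beside -0.0025 over all coding genes. In BafA1 cells the list median was -0.0048, beside 0.06 over all coding genes. Besides MSX2, SKIL and UNC5B, GATA2, a haematopoietic transcription factor, fell by 0.42 ± 0.07, CITED1 by 0.41 ± 0.07, KLF10, a TGF-beta-inducible repressor, by 0.34 ± 0.05 and HEY1, a Notch and BMP target, by 0.25 ± 0.02. SMURF1 and SMURF2, ligases of the pathway, moved by -0.01 and -0.03.

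Among coding genes with their own symbol, 187 reached 1 FPKM in 1 of the groups only, and 103 of these were tested. The tested genes passed the minimum only through the group where they were higher, so they are given as levels. The genes named, ID1 and NOG included, are those of them that passed both tests. Their choice thus rests on those tests, and their differences between the groups are no separate result. ID1 and NOG are described above. BMPER, which binds BMP outside cells, averaged 0.627 FPKM with FAC and 1.48 FPKM in control cells. KRTAP19-1 averaged 2.07 FPKM with FAC and 0.877 FPKM in control cells, and SPANXN3 2.21 FPKM with FAC and 0.79 FPKM in control cells.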
